A study of Mus musculus with 34 samples.

Results

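Chromatin accessibility was compared between 4 libraries of Rxra WT hair follicle stem cells (HFSCs) grown with apoptotic corpses and 2 libraries of Rxra WT HFSCs grown in medium. These 6 libraries, labelled Rxra WT corpses 1 to 4 and Rxra WT medium 3 and 4, were taken by their labels from the 34 ATAC-seq libraries of the series, 19 of which came from culture. ATAC-seq uses a transposase that cuts and tags DNA not covered by nucleosomes, so that open sites such as promoters and enhancers show as peaks of sequenced fragments. The study asked how mouse HFSCs sense and clear dying neighbours, and this comparison asks which sites were open in cells given corpses and in cells given none.

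Both groups were primary HFSCs from mouse skin in culture, with intact Rxra (Rxra+/+), Sox9-creER and R26-YFP fl/fl. They had been treated with 4-hydroxytamoxifen, sorted for YFP and grown on fibroblast feeders whose division was blocked. The corpses were other HFSCs that carried mTomato and had been killed with cisplatin, and the study's control corpses then received DMSO as vehicle. They were added together with the medium they had conditioned. Each ATAC-seq library started from 50000 sorted cells. The gate that the study used to analyse such cultures kept live YFP+ mTomato- cells and so leaves out free corpses, but no source used here says that these libraries were sorted by it. Corpse DNA is mouse DNA as well, and the lists do not separate any that remained from that of the living HFSCs. The paper calls these libraries biological replicates, but no label says that they came from separate cultures. A p-value here therefore weighs the spread among these libraries, and that spread may be technical. The peak names stored in the lists carry the tag NonPhago for corpses 1 and 2 and for both medium libraries, and Phago for corpses 3 and 4. The stored numbers 1 and 2 occur under both tags in the corpse group, so its 4 libraries may stem from fewer cultures.

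Apoptotic cells display and release signals that bring neighbouring or professional phagocytes to bind, engulf and digest them. Engulfment receptors and bridging proteins bind the corpse, the actin machinery of the phagocytic cup takes it in, and Rab GTPases, the proton pump and lysosomal hydrolases turn the phagosome into a digestive compartment. AP-1, a family of dimers of FOS, JUN, ATF and MAF proteins, binds enhancers in stressed, wounded and proliferating epithelium, and RXRA pairs with other nuclear receptors to respond to retinoids and lipids.

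The regions on which the results turn are shown first, as windows of 201 bases centred on the summit of the strongest peak, in mm39. Capitals mark the AP-1 letters TGACTCA on either strand. The first 3 stand for regions listed with corpses and not in medium. The next is an unrepeated promoter of a pathway gene listed in medium and not with corpses. The last had the largest relative rise among unrepeated regions called in all 6 libraries that passed the threshold given below.
Rab22a intron (corpses), chr2:173504415-173504615, plus strand: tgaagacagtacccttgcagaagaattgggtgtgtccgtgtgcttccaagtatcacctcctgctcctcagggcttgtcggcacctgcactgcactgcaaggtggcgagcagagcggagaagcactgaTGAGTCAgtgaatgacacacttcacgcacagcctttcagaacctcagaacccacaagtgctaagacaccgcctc
Mitf intron (corpses), chr6:97929845-97930045, plus strand: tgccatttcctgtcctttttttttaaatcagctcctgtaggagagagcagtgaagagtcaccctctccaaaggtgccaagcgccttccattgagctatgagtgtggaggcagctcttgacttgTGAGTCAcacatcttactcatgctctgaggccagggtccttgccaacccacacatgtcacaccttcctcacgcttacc
Scd2, distal (corpses), chr19:44269260-44269460, plus strand: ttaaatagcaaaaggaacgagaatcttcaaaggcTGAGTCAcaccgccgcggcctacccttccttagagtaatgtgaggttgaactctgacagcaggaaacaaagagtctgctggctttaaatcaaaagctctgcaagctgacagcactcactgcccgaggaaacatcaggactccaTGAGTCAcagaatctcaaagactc
Lrp1 promoter (medium), chr10:127457515-127457715, plus strand: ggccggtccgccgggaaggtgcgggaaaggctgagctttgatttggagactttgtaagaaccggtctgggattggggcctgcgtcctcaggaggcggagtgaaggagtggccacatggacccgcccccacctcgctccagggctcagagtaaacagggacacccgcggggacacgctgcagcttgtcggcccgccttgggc
Tle3, distal (all 6 lists, relatively higher with corpses), chr9:61395140-61395340, plus strand: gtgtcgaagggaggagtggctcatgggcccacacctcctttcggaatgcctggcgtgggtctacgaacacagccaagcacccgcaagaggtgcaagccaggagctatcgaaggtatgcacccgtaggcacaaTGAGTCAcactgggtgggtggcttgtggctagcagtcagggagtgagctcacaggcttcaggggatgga

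The groups differed in the number of called peaks, the estimated fragments and the height of shared sites. Called peaks numbered 72225, 75026, 100511 and 114726 with corpses, against 4841 and 5740 in medium. Fragments estimated from the peak scores came to 6260000, 11100000, 23300000 and 17600000 with corpses, against 4760000 and 4330000 in medium. The shortest peak of each list, taken in that estimate as the mean fragment length because the caller's default minimum length is the fragment length, was 60, 80, 104 and 76 bp with corpses, against 207 and 195 bp in medium. Corpses 1 held few more fragments than medium 3 and yet about as many peaks as corpses 2, and its median summit pileup, 8 fragments, was that of both medium libraries. The height of a summit over the genome-wide background of its library, called enrichment below, had medians of 144, 122, 137 and 176 with corpses, against 22.8 and 22.1 in medium, at the 213 unrepeated regions listed in all 6 libraries. Shared sites thus stood several times less far above background in medium, with no overlap between groups. The background in this measure grows with the fragment length as well as with the number of fragments. The estimated length was shorter with corpses, and its part in the gap was not tested. The part of this signal gap in the results below was not tested beyond the values given, and culture condition and library signal cannot be told apart with these 6 libraries.

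**Figure D1:**
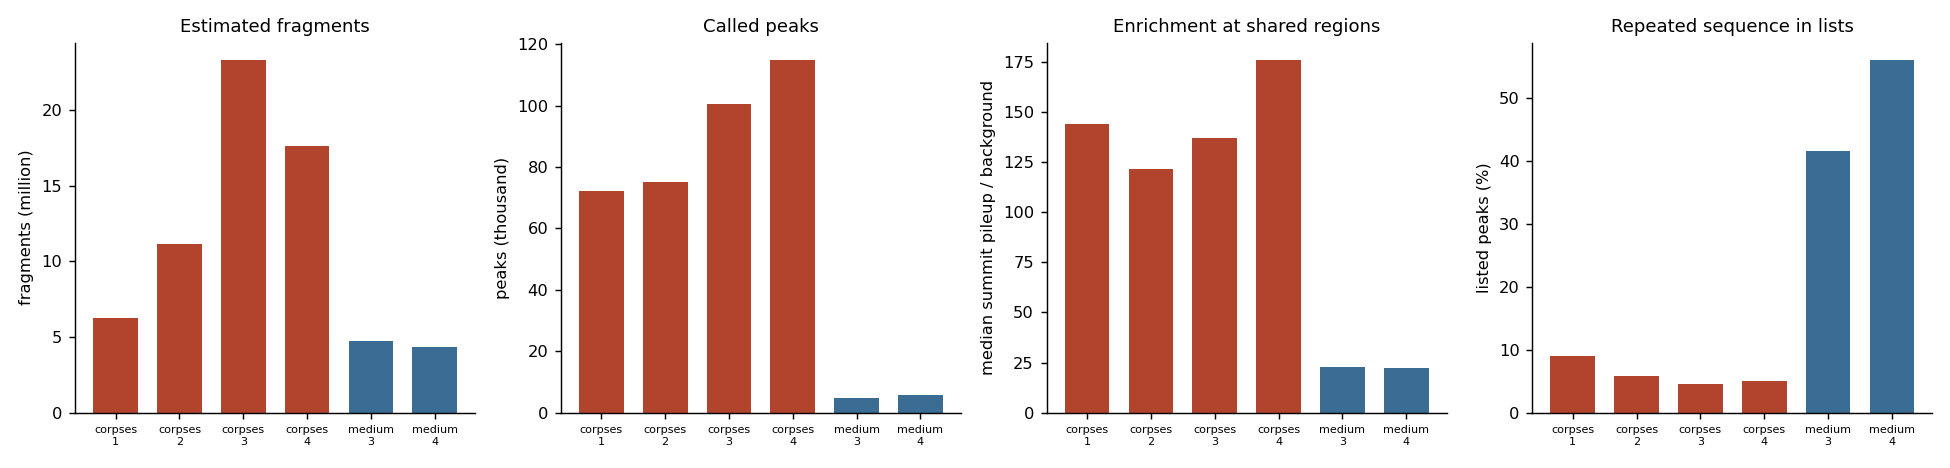
Estimated fragments, called peaks, median enrichment at the 213 unrepeated regions shared by all 6 lists (summit pileup over background) and share of listed peaks in repeated sequence (%), one bar per library, corpses in red and medium in blue. Median enrichment was 122 to 176 in corpse libraries and 22.1 and 22.8 in medium, and repeated sequence held 4.47 to 8.94% of listed peaks with corpses and 41.6 and 55.9% in medium.

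To set aside the number of calls, each library was reduced to its 4812 peaks of highest −log10 p, the number that medium 3 had on chromosomes 1 to 19, X and Y. Peaks that overlapped were merged, which gave 14758 regions. Of these, 1305 (8.84%) had a peak in all 4 corpse lists and in neither medium list, and are called corpse-specific. Another 716 (4.85%) had a peak in both medium lists and in no corpse list, and are called medium-specific. Peaks in all 6 lists marked 288 regions. A further 5792 regions came from 1 medium library alone, against 2671 from 1 corpse library alone. These counts cannot compare agreement within groups, since a corpse list had more lists of its group to share with than a medium list. Without medium 3, where lists also lengthened to 5709 peaks, the corpse-specific count was 2076 and the medium-specific count 4667, and both choices changed there at once. Without medium 4, at lists of 4812, the medium-specific count was 3361.

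The corpse-specific regions were nearly free of repeated sequence. Copies were counted for the 25-base words of the whole region. A region was called repeated when the median of these words had at least 1 other copy in the genome. It was also called repeated when at least 20% of them occurred in mitochondrial DNA. By this rule 48 of the 1305 corpse-specific regions were repeated (3.68%), against 640 of the 716 medium-specific regions (89.4%). The medium-specific repeats had a median of 9297 other copies, and 507 had at least 100. Outside repeats, 1257 of 10592 regions were corpse-specific (11.9%) and 76 were medium-specific (0.718%).

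Repeats were also more frequent in the medium lists. They made up 8.94, 5.74, 4.47 and 5.01% of the listed peaks with corpses, against 41.6 and 55.9% in medium (exact permutation test, two-sided, p = 0.0667). With 4 against 2 libraries there are 15 divisions, so that 0.0667 is the smallest p this design allows and no test of single values can reach 0.05. Of the listed peaks, 23.1 ± 0.522% (SD, n = 4) lay on chromosomes 1 to 3 with corpses, against 37.5 ± 5.10% (n = 2) in medium (exact permutation p = 0.0667). Among repeated peaks these chromosomes held 23.0 to 28.6% with corpses, against 52.8 and 55.8% in medium. Among unrepeated peaks they held 22.2 to 23.5% with corpses, against 20.5 and 22.5% in medium, so the excess lay in repeated sequence. Of the medium-specific regions, 464 (64.8%) lay on these 3 chromosomes. Other libraries with few calls shared these traits in part. Repeats made up 21.2 and 48.8% of listed peaks in Rxra cKO medium, with 50 and 54.9% of them on chromosomes 1 to 3. In the library Rxra WT AA LPC RA 3, with 12989 called peaks and no corpses, these shares were 13.3 and 37.3%. In library 1 of that group, with 89590 called peaks, they were 4.86 and 24.8%. The part of the number of calls was not tested.

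**Figure D2:**
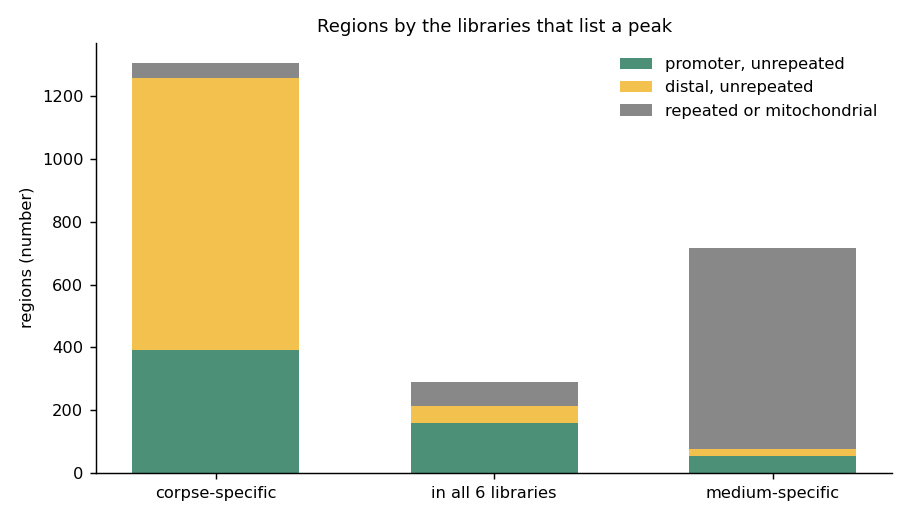
Number of regions listed in all 4 corpse libraries and no medium library, in all 6 libraries, and in both medium libraries and no corpse library, split into unrepeated promoter, unrepeated distal and repeated or mitochondrial sequence. Of 1305 corpse-specific regions 48 were repeated, and of 716 medium-specific regions 640.

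Absence from a medium list can reflect rank or weak signal. The list of medium 3 holds every peak called there on these chromosomes, so absence from it is part of the definition. Medium 4 had 5709 such peaks, and at that full depth it had called 5 of the 1305 corpse-specific regions (0.383%). The lowest enrichment of any called peak was 9.49 in medium 3 and 11.1 in medium 4, and the regions shared by all 6 lists were themselves several times lower in medium. An unlisted region in medium therefore cannot be told apart from one open below what could be called.

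Promoters (within 1 kb of a transcription start) made up 406 of the 1305 corpse-specific regions (31.1%), and the other 899 were distal, at a median of 25872 bp from the nearest start. Of all corpse-specific regions, 35.0% lay in introns and 48.05% between genes. The promoter share of the lists was 29.3, 37.7, 49.5 and 39.3% with corpses, against 28.5 and 17.3% in medium. The means, 39.0 ± 8.27% with corpses (SD, n = 4) and 22.9 ± 7.89% in medium (n = 2), were 16.1 percentage points apart, with no overlap between groups (exact permutation p = 0.133). Within 500 bp of a start the p was 0.0667. The sign turned among unrepeated peaks, where promoters averaged 39.8% with corpses and 41.7% in medium (difference −1.82 percentage points).

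Corpse-specific promoters are named by their worst rank in the 4 corpse lists. N4bp2l2, whose summit lay 72 bp from a start, had fold enrichments over local background of 21.1, 23.0, 22.4 and 30.1 in corpse libraries 1 to 4. Pigu, a subunit of the enzyme that attaches GPI anchors to proteins, had 22.3, 29.8, 29.2 and 35.8. Chmp4b, a filament-forming subunit of the ESCRT-III membrane scission machinery, had 22.0, 20.6, 17.5 and 24.9. Mrgbp, Zbed5 and Zfp120 completed the first 6 by rank. None of the 6 was called in either Rxra WT medium library.

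Each of the first 6 distal regions had a higher fold than these promoters in every corpse library. The region 23851 bp from the start of Elp6, an Elongator subunit, had folds of 54.0, 60.7, 63.7 and 72.0 with corpses. The regions nearest Alkbh8, a tRNA methyltransferase, Hic2, Dpy19l1, Mex3c and Cd209a followed, with worst ranks in the 4 lists of 73 to 147. None of these 6 had a called peak in either Rxra WT medium library, and none held AP-1 letters within 100 bp of its summit. Some were narrow, such as those nearest Elp6 (chr9:110110318-110110436) and Alkbh8 (chr9:3258818-3258929). The median width of distal corpse-specific regions was 535 bp. The Hic2 region was called in both Rxra cKO medium libraries. The regions nearest Elp6 and Dpy19l1 were called in no library labelled Rxra WT BEL corpses. Both were called in the library labelled Rxra WT AA LPC RA 1, which had no corpses (these groups are described below).

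Of the 28 motifs searched, AP-1 letters differed most in share between the groups. Within 100 bp of the summit, TGACTCA on either strand stood in 37.0, 33.2, 26.8 and 33.5% of listed peaks with corpses, against 7.11 and 4.32% in medium. The means were 32.6 ± 4.26% (SD, n = 4) with corpses and 5.71 ± 1.97% (n = 2) in medium, higher in all 4 corpse libraries than in both medium libraries (exact permutation p = 0.0667, 0.110 after Benjamini-Hochberg adjustment over the motifs searched). In all 14758 merged regions the share was 20.2%, and in the 6992 that were unrepeated and distal it was 39.0%. Among unrepeated distal peaks the letters stood in 53.8, 53.3, 51.6 and 54.5% with corpses, against 18.5 and 12.7% in medium. The corpse libraries lay within 3 percentage points of each other there, and the groups did not overlap.

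The distal AP-1 share of the corpse libraries varied with rank, and was lower over all called peaks than in the lists. Distal peaks held the letters in 50.1% with corpses, against 6.53% in medium, in lists of 4812 (group means), and in 33.8% with corpses, against 6.37% in medium, over all called peaks. In corpses 1 the distal share was 49.5% in the first 4812 ranks and 27.4% beyond rank 40000. The strongest peaks also held fewer of these letters. In the first 1000 ranks the distal share was 40, 46.4 and 38.8% in corpses 1, 2 and 3. From there to rank 2000 it was 52.8, 53.5 and 54.1%. Promoters and distal peaks together held AP-1 letters, over all called peaks, in 29.0, 29.2, 29.4 and 28.9% with corpses, against 7.11 and 4.08% in medium. When all 6 lists were cut to the same number of unrepeated peaks, 2120, the unrepeated distal share was 54.6, 55.7, 53.6 and 55.1% with corpses, against 24.2 and 12.7% in medium. The medium share also differed between parts of its own list. Among distal peaks of medium 3 it was 6.12% in the first 1000 ranks, 10.8% from there to rank 2000, 11.3% from there to rank 3000, 9.82% from there to rank 4000, and 4.67% beyond it. Of medium 3's distal listed peaks 31.5% were called in a corpse library, and of medium 4's 19.1%. Distal peaks found in 1 medium library alone and outside repeats had AP-1 letters in 158 of 2097 regions (7.53%), against 939 of 1848 (50.8%) for those found in 1 corpse library alone.

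Among the 865 unrepeated distal corpse-specific regions, 497 held AP-1 letters (57.5%), against 7 of the 23 unrepeated distal medium-specific regions (30.4%) and 21 of the 55 listed in all 6 libraries (38.2%). In the lists cut to 2120 unrepeated peaks, 431 regions were corpse-specific and 171 medium-specific. Of the distal ones, 167 of 283 (59.0%) and 14 of 38 (36.8%) held AP-1 letters. The order of the groups was kept, with a smaller gap than in the whole lists.

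**Figure D3:**
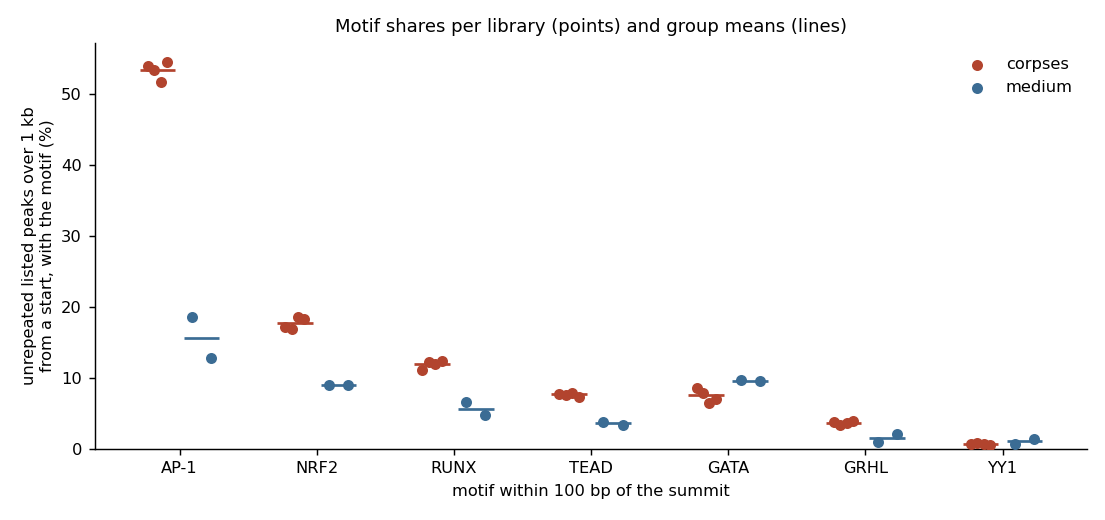
Share of unrepeated listed peaks farther than 1 kb from a start that hold each motif within 100 bp of the summit (%), one point per library and a line at each group mean, corpses in red and medium in blue. AP-1 letters stood in 51.6 to 54.5% with corpses and in 12.7 and 18.5% in medium, while the groups overlapped for YY1.

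Letters of other factors of the epidermis were also more frequent with corpses, by smaller amounts. Among unrepeated distal peaks, NRF2 letters (TGACNNNGC, the antioxidant response element core) averaged 17.7 ± 0.793% with corpses and 8.99 ± 0.0232% in medium (SD, n = 4 and n = 2). These letters can overlap AP-1 letters in the same peak, and the overlapping and separate matches were not split. RUNX letters (TGTGGTT), bound by factors that regulate HFSC activation, averaged 11.9 ± 0.588% with corpses and 5.66 ± 1.29% in medium. TEAD letters (GGAATGT), bound by the partners of YAP and TAZ, averaged 7.64 ± 0.242% with corpses and 3.603 ± 0.297% in medium. GRHL letters (AACNGGTT), bound by grainyhead-like factors of epithelia, averaged 3.64 ± 0.190% with corpses and 1.55 ± 0.796% in medium. For all 4 motifs the groups did not overlap (exact permutation p = 0.0667 each, the smallest possible, and 0.133 after Benjamini-Hochberg adjustment over the motifs). Over all 6992 unrepeated distal regions the shares were 13.8% for NRF2, 9.21% for RUNX, 6.14% for TEAD and 3.06% for GRHL letters.

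Some motifs did not follow. GATA letters (AGATAA) averaged 7.50 ± 0.936% with corpses and 9.58 ± 0.115% in medium among unrepeated distal peaks (exact permutation p = 0.133), and stood higher with corpses when repeats were kept. The single AGGTCA unit that nuclear receptors bind averaged 10.5 ± 0.559% with corpses and 12.1 ± 0.377% in medium, lower in all 4 corpse libraries than in both medium libraries (exact permutation p = 0.0667, adjusted p = 0.133). Over all unrepeated distal regions they stood in 8.37% (GATA) and 11.1% (AGGTCA). Complete direct repeats of that unit, as RXR dimers bind them, were in at most 0.104% of any list and cannot be compared. YY1 letters (AAGATGGC) stood in 0.697 ± 0.0896% of distal listed peaks with corpses and 5.92 ± 0.1296% in medium. Once repeats were left out they stood in 0.643 ± 0.0863% with corpses and 1.04 ± 0.448% in medium, where the groups overlapped, so most of the YY1 gap lay in repeated sequence.

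Gene windows (from 50 kb upstream to 5 kb downstream of a gene) were searched next. Of 21738 protein-coding genes, 1918 (8.82%) had a corpse-specific region in their window, 516 (2.37%) a medium-specific one, and 121 (0.557%) an unrepeated medium-specific one. Of the 474 genes on 26 lists, 56 (11.8%) had a corpse-specific region, 13 (2.74%) a medium-specific one, and 2 an unrepeated one. The shares of single lists are given beside 8.82% as counts, with no test.

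Of 18 engulfment receptors 1 (5.56%, beside 8.82% of all genes) had a corpse-specific region, Ager, whose window reached the promoter of its neighbour Rnf5. Of 13 bridging proteins 1 (7.69%) did, Calr, through the promoter of Gcdh. Mertk, the TAM receptor for GAS6 and PROS1, had a promoter peak at ranks 6530, 6457, 8035 and 7183 with corpses, below the 4812 listed, with folds of 13.0, 16.3, 20.3 and 24.4. Axl, a second TAM receptor, had promoter folds of 6.14, 4.46, 9.56 and 11.0. Tyro3 was called in 3 of the 4 corpse libraries. Promoters of the bridging proteins Gas6 and Mfge8 were called in all 4 corpse libraries, with folds of 5.18 to 8.69 and 5.26 to 10.1. No promoter peak of these 5 genes was called in either medium library. Of all protein-coding genes, 9.84% had a promoter call in 1 or both medium libraries and 49.5% in all 4 corpse libraries. Such a lack of calls in medium was thus the rule for most genes.

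Of 30 genes of the phagocytic cup 3 (10%, near the 8.82% of all genes) had a corpse-specific region. Abl1, a tyrosine kinase that acts on the actin cytoskeleton, had promoter folds of 15.2, 21.5, 19.9 and 27.7. Elmo2, which joins DOCK proteins to activate Rac, had promoter folds of 14.8, 14.7, 13.8 and 18.2. Rhoa, the GTPase of actomyosin contraction, was reached only through the promoter of Nicn1. Of 29 phagosome maturation genes 5 (17.2%) had a corpse-specific region, namely Rab22a, Rab7, Uvrag, Vps18 and Pik3c3.

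Rab22a, a GTPase of early endosomes, had 3 such regions, each with AP-1 letters. The region in its intron shown above, 2962 bp from the start, had folds of 19.4, 15.6, 12.8 and 19.3 with corpses. The 2 others, 12457 and 20623 bp from the start, had folds of 15.8 to 22.0 and 19.2 to 27.9. Rab7, which directs phagosomes to lysosomes, had an intronic region with folds of 18.4, 21.6, 23.3 and 28.0. Uvrag, a partner of the class III phosphatidylinositol kinase, had 2 regions with folds of 15.2 to 35.8. No peak was called at any of these in either medium library.

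Lysosomal genes had the highest count of the clearance lists, 8 of 31 (25.8%). Mitf, a transcription factor of the family that controls lysosomal genes and known chiefly from melanocytes, had an intronic region with folds of 22.7, 22.4, 29.8 and 30.2 at ranks 245, 325, 118 and 257, the one shown above. Ctsz, the protease cathepsin Z, had 3 regions, of which only the one 3675 bp from its start, with folds of 13.8, 21.5, 22.8 and 25.98, was nearest to Ctsz itself. Regions nearest their own gene also lay at Ctsh, Laptm4a and Npc1, whereas those of Ctsa, Dnase2a and Tpp1 were promoters of neighbours. Of 15 proton pump genes 3 (20%) had a region, Atp6v1a, Atp6v1c1 and Atp6v1h, and only that of Atp6v1c1 was nearest its own start. Of 16 constitutive genes, chosen for comparison, 3 (18.75%) had a region as well, Actb and Polr2a among them, so the lists of digestion genes were not set apart from these by their counts.

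Of 26 retinoid pathway genes 2 (7.69%, near the 8.82% of all genes) had a corpse-specific region, one near Dhrs9 that was called repeated and one of Rarb whose nearest start was that of Top2b. Rxra itself had promoter folds of 12.8, 12.1, 12.8 and 16.7 with corpses, against 4.54 in medium 4 and no call in medium 3. Rarg had promoter folds of 8.72, 9.09, 11.1 and 12.1 with corpses and no call in medium. Of 22 LXR, PPAR and lipid genes 2 (9.09%) had a region. That of Scd2, a fatty acid desaturase, held 2 copies of the AP-1 letters and had folds of 18.4, 21.0, 21.7 and 24.7. That of Cpt1a, which carries fatty acids into mitochondria, lay 475 bp from its start with folds of 16.3, 19.4, 23.3 and 25.4.

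Of 18 YAP and TEAD genes 4 (22.2%, beside 8.82% of all genes) had a region (Tead1, Tead4, Amotl1 and Amotl2). That of Tead1, which held both AP-1 and TEAD letters, had folds of 16.01, 21.4, 21.7 and 26.6. Of 24 epidermal identity genes 2 (8.33%, near that of all genes) had a region, and that of Dst, a hemidesmosome linker, had folds of 15.05, 16.6, 15.2 and 20.6. Of 15 NRF2 targets 2 (13.3%) had a region, and that of Srxn1, which repairs oxidised peroxiredoxins, stood at ranks 665, 94, 111 and 71. Of 26 inflammatory genes 4 (15.4%) did, Il1b and Il18 through regions nearest their own start, Il1a only through the promoter of Ckap2l and Relb only through that of Clasrp. Of 25 stress and wound genes 4 (16%) did, Klf6 and Plaur through regions nearest their own start, Gadd45b only through the promoter of Timm13 and Dusp1 only through a region nearest Ergic1. Of 19 HFSC identity genes (5.26%) only Tcf7l2, a WNT effector, had one, with folds of 20.8, 20.4, 27.0 and 28.6.

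Promoter calls at full depth gave a check of the labelled cell type. Promoter peaks were called in all 4 corpse libraries for 10750 of 21738 protein-coding genes (49.5%), in both medium libraries for 540 (2.48%), and in 1 or both medium libraries for 2139 (9.84%). In the lists of equal length, 456 genes (2.1%) had a promoter peak in all 4 corpse libraries and in neither medium library. For epidermal identity genes the counts were 23 of 24 in all 4 corpse libraries and 5 of 24 in 1 or both medium libraries, and for HFSC identity genes 12 of 19 and 3 of 19. Krt5, Krt14, Krt15, Itga6 and Trp63 were called in all 4 corpse libraries and in neither medium library. Sox9, a master factor of HFSCs, was called in all 4 corpse libraries and in medium 4, at rank 1706. Of markers of other cells, 3 of 11 fibroblast, 2 of 9 macrophage, 1 of 6 T cell, 1 of 7 endothelial and 1 of 7 melanocyte promoters were called in all 4 corpse libraries. In the medium libraries, 1 melanocyte promoter was called and no promoter of the other 4 marker lists. So few calls in medium leave its cell type little checked.

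The 76 unrepeated medium-specific regions were mostly promoters, 53 of them, against 392 of the 1257 unrepeated corpse-specific regions. Only 2 belonged to listed genes, and both were nearest their own gene. The Jun promoter, 185 bp from the start of the gene for the AP-1 subunit JUN, held ranks 1130 and 3147 in medium. With corpses it was called too, at ranks 28519, 16722, 14672 and 21504, and its enrichment was 79.6, 77.7, 95.7 and 102 with corpses, against 28.5 and 24.3 in medium. The Lrp1 promoter, 598 bp from the start of the gene for a large endocytic receptor that binds calreticulin on corpses, had ranks 3634 and 1190 and enrichments of 11.4 and 22.1 in medium. At full call depth it was called in every Rxra WT corpse library as well. At full call depth, 67 or 68 of the 76 regions were called in each corpse library. Most of these regions thus ranked lower with corpses and were still called there.

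Of the medium-specific promoters, Ripk2, a kinase of innate immune signalling, ranked first with folds of 10.1 and 9.42 in medium. It was followed by Zfp78, a zinc finger gene, with 8.60 and 8.43, by Bhlhe40, a circadian and stress repressor, with 7.45 and 6.62, and by Aco1, the iron-responsive aconitase, with 8.18 and 6.88. Among unrepeated distal medium-specific regions those nearest Mvb12b, Csnk1a1, Tapt1 and Ddhd1 ranked first. Of the 640 repeated medium-specific regions, 54 to 80 were called in each corpse library at full depth.

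Regions called in all 6 libraries at full depth, 704 in number, allowed a test of relative height. Fold enrichments were put on the log2 scale, quantile normalised and fitted with limma, so a change is a change in a region's place among the 704 and not in its absolute height, which was higher with corpses almost throughout (median folds of 13.0, 14.9, 16.4 and 18.6 with corpses, against 6.63 and 6.003 in medium). At a Benjamini-Hochberg adjusted p under 0.05 in limma, 80 regions (11.4%) were relatively higher with corpses and 72 (10.2%) relatively lower. Of the 72 lower regions 20 were unrepeated, and of the 80 higher regions 58 were. Without repeated regions in the fit, 27 of 562 were higher and 21 lower. The higher count was 39 without corpses 4, 43 without corpses 2 and 46 without corpses 3, and the lower count was 46 without corpses 4. With the corpse libraries stored as NonPhago alone, 1 region was higher and 23 lower.

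Among regions past the threshold and not called repeated, the largest relative rise was at a region whose nearest gene is Tle3, a groucho-type corepressor. This region lay 112429 bp from the nearest start. It had folds of 11.7, 17.5, 19.9 and 25.03 with corpses, against 3.93 and 4.04 in medium (log2 change 1.1697 ± 0.176 SE, limma adjusted p = 0.00275). Every corpse value was above both medium values, and the window shown above holds 1 copy of the AP-1 letters. The fit keeps only regions called in medium, where the lowest called summit held 5 fragments and the median one 8. The medium folds here were below the medians of all calls in medium 3 and 4, 5.34 and 5.40, and near the lowest height called. The part of this limit in the rise and its SE was not tested. The promoter of Aplf, a DNA end-joining factor, followed with 19.5, 22.2, 25.01 and 27.8 with corpses, against 4.47 and 5.89 in medium (log2 change 1.10 ± 0.204, limma adjusted p = 0.00642). The region nearest Tprg1 had a log2 change of 0.99 ± 0.143 (limma adjusted p = 0.00255). The promoters of Zscan25 and Fam83d, a mitotic spindle protein, had log2 changes of 1.00 and 0.95, and each lost the threshold in 9 alternative fits.

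Among regions past the threshold and not called repeated, the largest relative fall was next to Adgre5, an adhesion receptor gene. This region lay 15603 bp from the start of that gene, in a tandem repeat of short units that the copy rule did not call repeated. It was the one named region whose unnormalised folds were also lower with corpses, at 11.0, 14.1, 16.1 and 16.3, against 26.1 and 29.2 in medium (log2 change −1.98 ± 0.1304 SE, limma adjusted p = 8.28e-05). The other named regions that fell lay at promoters. Ripk2 had folds of 7.77, 10.1, 11.0 and 13.1 with corpses, against 10.1 and 9.42 in medium (log2 change −1.11 ± 0.134, limma adjusted p = 0.000982), so its raw values overlapped and it fell only relative to the other regions. The same held for Impact, an inhibitor of the GCN2 kinase, while Zfp78 and Mex3c had raw folds that were higher with corpses, with log2 changes of −1.01, −0.88 and −0.85 for the 3 in that order.

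**Figure D4:**
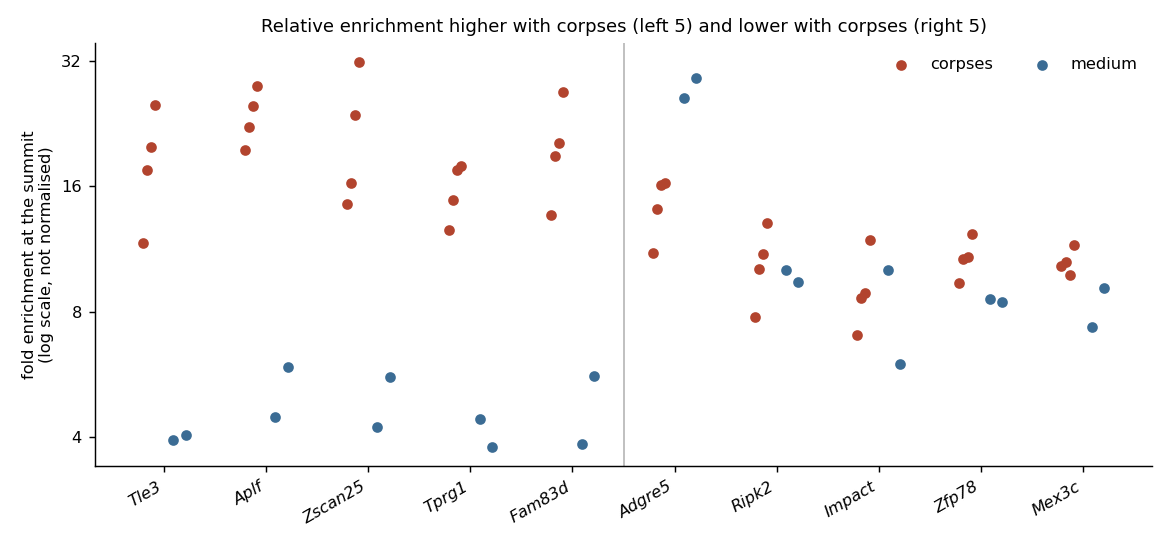
Unnormalised fold enrichment at the summit (log scale) of the 10 named regions called in all 6 libraries, one point per library, corpses in red and medium in blue. The 5 on the left were relatively higher with corpses by limma and the 5 on the right relatively lower, but only in the tandem repeat next to Adgre5 did every corpse value (11.0 to 16.3) lie below both medium values (26.1 and 29.2).

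The corpse-specific regions were then looked up in the other cultured libraries, each cut to its best 4812 peaks where it had as many. Libraries of Rxra cKO HFSCs with corpses listed 73.4 to 79.5% of the 1305 regions, and those of Rxra WT HFSCs with corpses treated with BEL (bromoenol lactone, an inhibitor of calcium-independent phospholipase A2) listed 63.3 to 66.7%. With the mix labelled AA, LPC and RA (arachidonic acid, LPC for lysophosphatidylcholine, and RA for retinoic acid) and no corpses, the shares were 77.6 and 41.8% in Rxra WT and 57.2 and 54.3% in Rxra cKO HFSCs. In Rxra cKO medium they were 21.6 and 5.90%. The lists also differed in makeup. Promoters made up 67.7 to 69.3% of unrepeated listed peaks with BEL-treated corpses. That share was 30.5 to 50.5% with corpses in Rxra WT and 35.5 to 45.8% in Rxra cKO HFSCs. The estimated fragment length was 144 or 145 bp with BEL-treated corpses and 75 to 81 bp with corpses in Rxra cKO HFSCs. With the mix in Rxra WT HFSCs it was 104 bp in library 1 and 219 bp in library 3. The part of these differences was not tested. At full call depth all 3 Rxra cKO corpse libraries held 100% of the regions, while Rxra cKO medium held 22.5 and 5.90%. Among the other libraries with 58277 or more called peaks, each held at least 99.1% of the regions, with or without corpses, and the library Rxra WT AA LPC RA 3, which had 12989 called peaks, held 59.6%. The 4 medium libraries had 4144 to 5740 called peaks.

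**Figure D5:**
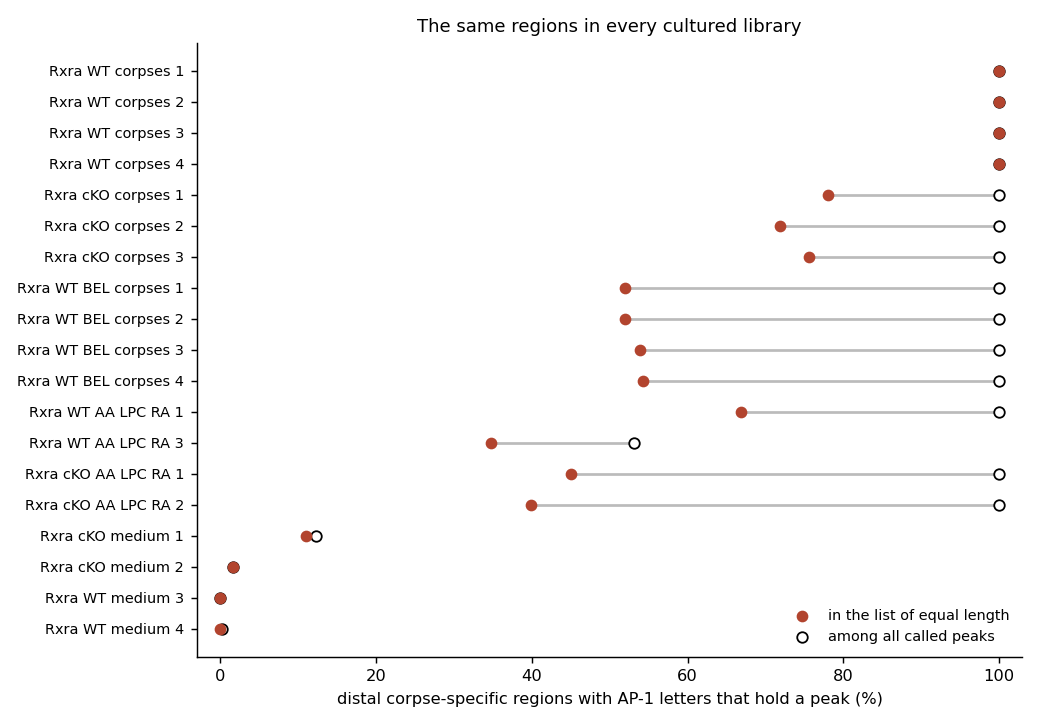
Share (%) of the 497 unrepeated distal corpse-specific regions with AP-1 letters that hold a peak in each cultured library, filled points for lists of equal length and open points for all called peaks. Rxra WT corpses and Rxra WT medium defined the regions, so their 100% and 0% in lists of equal length were fixed in advance. In these lists Rxra cKO corpses stand at 71.8 to 78.1%, BEL-treated corpses at 51.9 to 54.3%, and Rxra cKO medium at 11.1 and 1.61%.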

How the data were processed

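ATAC-seq peak lists of 6 libraries of cultured mouse HFSCs (Rxra WT corpses, n = 4, and Rxra WT medium, n = 2) were analysed, grouped by their labels, with the other 13 cultured libraries for comparison. Alignment by the authors was to mm39 (BWA-MEM 0.7.18), and SAMtools 1.17 served to drop duplicates. They ran MACS3 3.0.0 on each library alone, on paired-end fragments with no control sample and an effective genome size of 1.87e+09 bp. Each deposited list gives the fold enrichment over local background at the summit (a ratio), its −log10 p and −log10 q, and the summit position. The deposited lists hold no read counts, so the count model that the study's methods describe could not be fitted, and presence, rank and fold were used. Lists of equal length (4812 peaks) were compared, since calls depend on depth.

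Whole pileups and backgrounds were recovered from the scores of 99.9% of peaks or more with corpses and 99.6% in medium (error at most 0.01), which gave fragments and enrichment. Peaks sharing 1 bp were merged. Windows of 201 bases around summits were searched for 28 motifs. Copies of the 25-base words of whole peaks and whole regions were counted in the genome. Genes came from GENCODE vM39. Single values were compared by exact permutation over libraries (Python 3.11.15, SciPy 1.17.1), two-sided, with Benjamini-Hochberg adjustment within a family of motifs. Log2 fold enrichments of regions called in all 6 libraries were quantile normalised and tested with limma 3.58.1 (R 4.3.3). The rules were tested on simulated data. The alternatives, 99 planned and 5 chosen after seeing the data (lists of unrepeated peaks of equal length), are given in the closing section. The members, gene lists and motifs were chosen with earlier results of these data known.

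Named were the 6 promoter and 6 distal corpse-specific and the 4 and 4 medium-specific regions with the best worst rank, the 5 regions of largest fitted change in each direction (none called repeated by the copy rule, which missed a tandem repeat next to Adgre5), regions in windows of listed genes, and 13 fixed genes. Of 478 listed genes, 474 were found among 21738 protein-coding genes. Some items are not reported here.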

Additional observations from a re-analysis of the deposited data

Results flagged for a closer look

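Within the corpse group, 1 of 52 measures tested had a library far from the others, where chance flags about 1 in 20. The share of distal peaks with RUNX letters was lowest in corpses 1, at 10.9%, while the other 3 corpse libraries lay close together up to 12.4%, and the gap was 0.922 of the group's range. All 4 values were above those of medium, 3.95 and 2.49%.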

How the results depend on the processing

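The AP-1 share of listed peaks kept its direction in all 16 alternatives (leaving out each library, differences of 25.5 to 29.0 percentage points), and so did the RUNX and TEAD distal shares in 13 each. Corpse-specific regions numbered 48283 with all called peaks, 529 in lists 2 times shorter, 326 at a −log10 q of at least 5, 754 without chromosomes 1 to 3, 1969 with NonPhago and 2344 with Phago corpse libraries alone, 431 in equal lists of unrepeated peaks, and 1433 to 2076 leaving out each library (lists lengthened to 5709 peaks without medium 3). Medium-specific regions numbered 419 in lists 2 times shorter, 280 at a −log10 q of at least 5, 76 outside repeats, 278 without chromosomes 1 to 3, 171 in equal lists of unrepeated peaks, and 718 to 4667 leaving out each library. The promoter share (differences of 10.5 to 22.4 leaving out each library) turned round with all called peaks (−3.71 percentage points), outside repeats (−1.82) and in equal lists of unrepeated peaks (−2.79). The share on chromosomes 1 to 3 (−16.6 to −10.8) turned round outside repeats (1.47) and in equal unrepeated lists (1.93), and the distal GATA share outside repeats (−2.08), where only repeated peaks were removed.

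In the limma fit, relatively higher regions numbered 51 with median centring (91 lower), 34 among regions above the median fold (25 lower), 27 without repeats (21 lower), 1 with NonPhago (23 lower) and 42 with Phago corpse libraries alone, and 39 to 91 leaving out each library (46 to 83 lower). The cause was not tested. Libraries of corpses and medium shared the numbers 3 and 4 only. The replicate block on these numbers gave 81 higher and 70 lower, and deviations of same-numbered libraries correlated by at most 0.0291 in size, so the numbers did not pair them. Of 195 alternatives for single named regions and motifs, 26 lost the threshold and 1 turned round.

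The medium lists are short. Corpses 1 gave 72225 calls at an estimated 6260000 fragments, against 4841 and 5740 calls at 4760000 and 4330000 fragments in medium. A region missing in medium was not detected there, and condition and library signal cannot be told apart. With 2 medium libraries no exact test can reach 0.05.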
